A study of Mus musculus with 24 samples.

Results

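The genes described here are 9 regulators of G protein signalling of the mouse, Rgs1, Rgs2, Rgs3, Rgs10, Rgs12, Rgs14, Rgs16, Rgs18 and Rgs19. They were taken by name, by mapping the Ensembl gene identifiers of the count table to symbols, and are 9 of the 55357 genes listed in it. All 9 passed the filter on low counts and are among the 14985 genes tested. RNA-seq had been run on bone marrow derived macrophages, which are cultured from marrow with M-CSF, the growth factor that drives macrophage differentiation, here supplied as supernatant of L929 cells at 10% of the medium. The marrow came from wild type C57BL/6J mice of 8 to 12 weeks. The study asked how the anti-inflammatory action of glucocorticoids depends on time. Macrophages received dexamethasone, a synthetic glucocorticoid, together with LPS, the bacterial lipopolysaccharide that activates Toll-like receptor 4. Other cultures received LPS alone, dexamethasone alone, or neither, the last being labelled as controls. Each treatment was sampled at 24 h and at 4 h with 3 libraries, which gives 8 groups and 24 libraries. The dexamethasone concentration was 100 nM. LPS was given as 100 ng with no volume stated, and no vehicle is named for the controls. These are cultured cells that saw both agents outside the animal, and no label tells if a group's 3 libraries came from separate mice.

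RGS proteins end signals from G protein-coupled receptors. They bind the active, GTP-bound G alpha subunit and speed up its GTP hydrolysis, after which the subunit rejoins G beta and G gamma and the receptor's signal stops. In macrophages such receptors read chemokines, complement fragments, nucleotides, adenosine and prostaglandins. The set of RGS proteins in a cell bears on how long such signals last where they run through a G alpha subunit that these proteins act on. By sequence the genes fall into the R4 subfamily of small proteins (Rgs1, Rgs2, Rgs3, Rgs16 and Rgs18), the R12 subfamily (Rgs10, Rgs12 and Rgs14) and the RZ subfamily (Rgs19).

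The libraries held between 18326206 and 27908164 counted reads. All 8 macrophage markers examined passed the filter, and their summed level lay between 17800 CPM (read counts scaled to library size, here with TMM factors) in dexamethasone-treated cells at 4 h and 51000 CPM in LPS-treated cells at 24 h. Markers of other cells were present at low levels and moved with treatment. Of 8 neutrophil markers 5 rose with LPS at 4 h, their sum being 117 to 163 CPM with LPS against 41.8 to 61.2 CPM in controls, with Ly6g at a mean of at most 0.0513 CPM in any group. Of 6 stromal and endothelial markers 3 rose with LPS at 4 h, with a sum of 102 to 142 CPM with LPS against 14.4 to 21 CPM in controls, mostly Kdr, and Col1a1 averaged at most 0.274 CPM in any group. The part of these lists in the LPS results at 4 h was not tested. Among lymphocyte markers, Cd3e of T cells averaged at most 0.054 CPM in any group, while Cd4 averaged 25.5 CPM in controls at 24 h. Among megakaryocyte and platelet markers, Gp1bb had no count, while Pf4 averaged 88.3 CPM with LPS and 51.6 CPM in controls at 4 h. Dendritic cell markers summed to a mean of 152 CPM in controls at 24 h, mostly Itgax at 149 CPM. The scaling factors that edgeR's TMM method gave the libraries ran from 0.679 to 1.18, with the lowest in LPS-treated cells at 4 h. Scaled by library size alone, the median log2 fold change of all tested genes for LPS at 4 h was -0.84, against -0.07 with TMM, and values are therefore read relative to TMM. In RNA from whole cultures, fewer cells that express a gene and less RNA of it per cell cannot be told apart.

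The 9 genes differed widely in level. Levels between genes are compared as CPM per kilobase of summed exon length. In control cells at 24 h Rgs10 was highest with a mean of 99.2 CPM per kb, followed by Rgs2 with 64.95, Rgs19 with 33.9 and Rgs18 with 28 CPM per kb. Rgs12 at 0.638 and Rgs3 at 0.645 CPM per kb were the lowest, just under Rgs16 at 0.838 CPM per kb. The summed level of the 9 genes was 108 ± 0.187 CPM per kb with dexamethasone plus LPS, 91.2 ± 3.86 with LPS, 163 ± 7.66 with dexamethasone and 252 ± 8.85 in controls at 24 h (SD, n = 3 each). At 4 h the sums were 111 ± 1.37 CPM per kb with dexamethasone plus LPS, 116 ± 3.50 with LPS, 174.5 ± 5.29 with dexamethasone and 250 ± 10.1 in controls. At either time each treated group's libraries lay wholly under the control libraries.

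**Figure D1:**
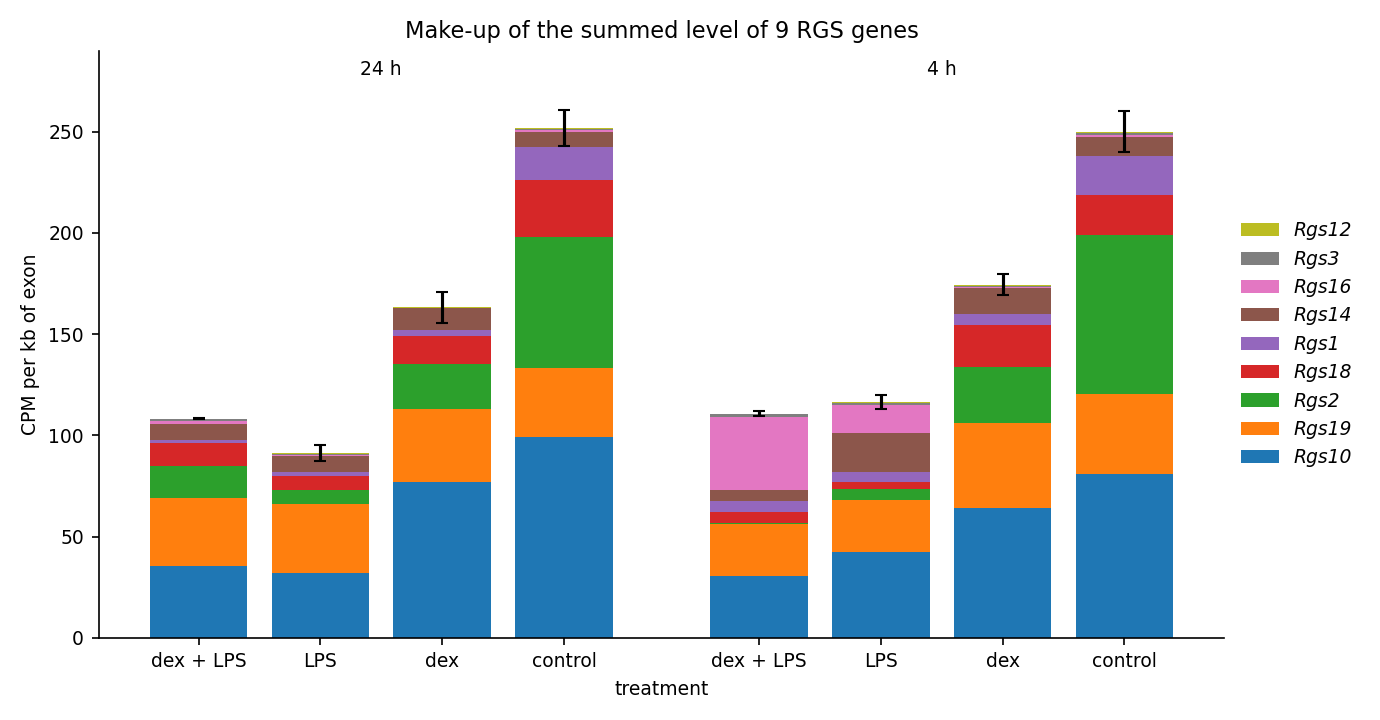
Stacked bars give the mean level of each of the 9 RGS genes in CPM per kilobase of exon (y axis, linear, from 0) for the 4 treatments at 24 h (left) and 4 h (right); dex is dexamethasone. Error bars are the SD of the sum over 3 libraries. The Rgs2 segment shrinks in every treated group, and at 4 h the Rgs16 segment reaches a mean of 35.7 CPM per kb with dexamethasone plus LPS.

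The make-up of the sum shifted as well as its size. At 4 h Rgs16 gave 32.3 ± 1.03% of the sum with dexamethasone plus LPS and 11.7 ± 0.987% with LPS, against 0.344 ± 0.0494% in controls (SD, n = 3 each). Rgs2 gave 0.654 ± 0.0375% with dexamethasone plus LPS and 4.55 ± 0.677% with LPS, against 31.3 ± 0.884% in controls. Rgs14 made up 16.5% with LPS, against 3.67% in controls. At 24 h the Rgs16 share with dexamethasone plus LPS was 1.29%, and the share of Rgs19 was 31.1% with both agents and 37.3% with LPS, against 13.4% in controls.

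A gene was called where edgeR's quasi-likelihood test gave a Benjamini-Hochberg adjusted p under 0.05 over all 14985 genes. LPS against control at 24 h called 0 of the 9 genes higher and 6 lower, where 60.4% of all tested genes were called, 29.7% higher and 30.6% lower. LPS against control at 4 h called 2 higher and 6 lower, where 72.9% of all genes were called, 34.2% higher and 38.8% lower. Dexamethasone against control at 24 h called 1 higher and 7 lower, with 48.4% of all genes called, 21.9% higher and 26.5% lower. At 4 h dexamethasone called 1 higher and 5 lower, with 41.4% of all genes called, 17.6% higher and 23.7% lower. Most of the called RGS genes in these comparisons with control were lower. The median log2 fold change of the 9 genes was -1.24 for LPS at 24 h and -0.86 at 4 h, against -0.02 and -0.07 over all genes.

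When dexamethasone plus LPS was set against LPS, 4 of the 9 genes were higher and 1 lower at 24 h, where 43.7% of all genes were called, 21% higher and 22.6% lower. At 4 h 3 were higher and 4 lower, where 49.3% of all genes were called, 23.9% higher and 25.4% lower. Scaled by library size alone these were 4 higher and 3 lower. The median log2 fold change of the 9 genes was 0.15 at 24 h and 0.00 at 4 h in this comparison. Dexamethasone plus LPS against control called 2 higher and 5 lower at 24 h, with 59.1% of all genes called, 28.8% higher and 30.3% lower. At 4 h it called 2 higher and 7 lower, with 70.3% of all genes called, 33.7% higher and 36.5% lower. In untreated cells 24 h against 4 h called 2 higher and 5 lower, with 60.9% of all genes called, 30.6% higher and 30.4% lower. Rgs18 (log2 fold change 0.52 ± 0.07, edgeR adjusted p = 1.61e-07) and Rgs10 (0.30 ± 0.06, edgeR adjusted p = 4.72e-05) were higher in controls at 24 h than at 4 h. Rgs2, Rgs3, Rgs12, Rgs14 and Rgs19 were lower, with log2 fold changes between -0.48 and -0.24, of which that of Rgs12 was lost in 3 of the fits that left out 1 library (largest edgeR adjusted p = 0.137). With shares of this size over all genes, the counts by themselves do not set the RGS genes apart from other genes, and the comparisons below turn on the size and direction of single genes.

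**Figure D2:**
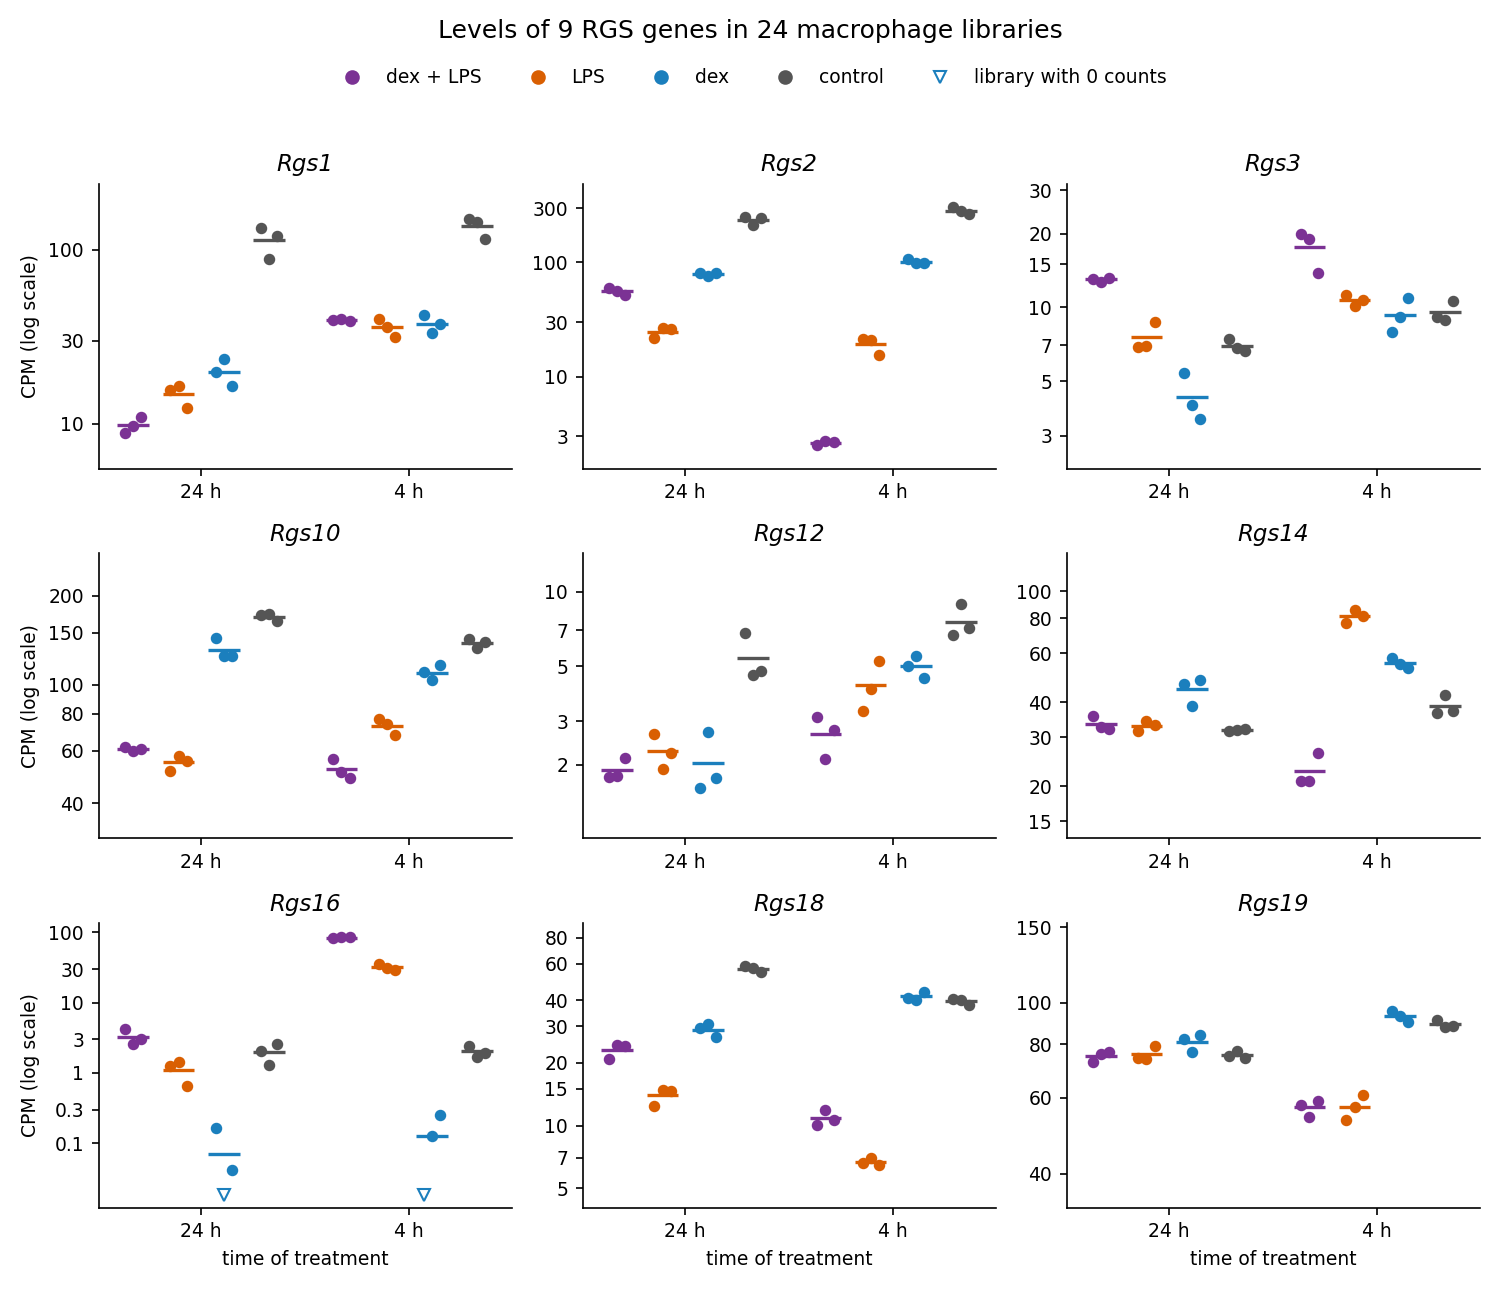
Each panel shows one RGS gene, with CPM on a log axis (its own scale per panel) in the 3 libraries of each treatment at 24 h (left) and 4 h (right). Points are libraries, bars are group means, and open triangles mark libraries with 0 counts of Rgs16; dex is dexamethasone. Rgs16 spans 1207-fold between its highest and lowest group means, and Rgs19 spans 1.63-fold.

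The windows before the annotated starts of Rgs2 and Rgs16 are shown because these 2 genes had the widest spans between group means, 108-fold and 1207-fold. LPS moved them in opposite directions at 4 h, while dexamethasone alone lowered both at 24 h and at 4 h. Each line gives the 250 bases before the RefSeq start, 5′ to 3′ on the gene's strand, with GRCm38.p6 coordinates chr1:144004150-144004399 (minus strand) for Rgs2 and chr1:153740103-153740352 (plus strand) for Rgs16. Capitals mark matches to the kB-like word GGG, any 5 bases, then CC, on either strand, where overlapping matches run together.
Rgs2: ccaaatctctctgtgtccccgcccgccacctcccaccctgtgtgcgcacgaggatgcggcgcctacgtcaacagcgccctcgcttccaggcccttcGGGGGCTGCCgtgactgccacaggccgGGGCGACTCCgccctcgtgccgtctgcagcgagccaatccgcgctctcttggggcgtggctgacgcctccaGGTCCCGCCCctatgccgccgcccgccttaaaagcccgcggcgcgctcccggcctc
Rgs16: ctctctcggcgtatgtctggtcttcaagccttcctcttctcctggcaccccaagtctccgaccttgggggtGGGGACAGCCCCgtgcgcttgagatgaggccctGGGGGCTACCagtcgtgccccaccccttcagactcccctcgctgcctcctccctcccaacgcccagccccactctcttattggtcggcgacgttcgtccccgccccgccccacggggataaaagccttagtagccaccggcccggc
Rgs2 held 3 such matches and Rgs16 held 4, of which 3 overlap in 1 run. The word was found in 45.8% of 32851 RefSeq windows of the same length, so its presence is common. Neither window held the glucocorticoid-receptor-like word GNACA, any 3 bases, then TGTNC, found in 0.387% of windows, or the AP-1-like word TGANTCA, found in 6.75%, on either strand. A match is a string of letters and was not tested as a binding site. Windows were at hand for 6 of the 9 genes, 10 windows in all, and the glucocorticoid-receptor-like word was in none of them.

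Rgs2 had the most ordered pattern: its 8 group means stood in an order in which no 2 neighbours had overlapping libraries. RGS2 is an R4 member that prefers G alpha q, the subunit that activates phospholipase C beta. The gene (ENSMUSG00000026360.10) lies on the minus strand at chr1:143875076-143879899 by the count table's coordinates, taken as GRCm39. At 24 h Rgs2 had 60.02, 56.7 and 52.1 CPM with dexamethasone plus LPS, against 21.6, 26.5 and 26.1 CPM with LPS. Every library with both agents was above every LPS library and under every control library (log2 fold change 1.19 ± 0.09, SE; edgeR adjusted p = 3.29e-12). Dexamethasone alone gave 80.1, 76.2 and 80.8 CPM, against 250.1, 211 and 246 CPM in controls, all lower (log2 fold change -1.57 ± 0.08, edgeR adjusted p = 1.7e-16).

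At 4 h the order of the 2 LPS groups was the other way round. Rgs2 had 2.49, 2.72 and 2.66 CPM with dexamethasone plus LPS, 21.5, 20.95 and 15.4 CPM with LPS, 107, 98.2 and 98.6 CPM with dexamethasone, and 306, 280.4 and 267 CPM in controls. The groups did not overlap, and the libraries with both agents were the lowest of all 24. Dexamethasone plus LPS against LPS gave a log2 fold change of -2.88 ± 0.15 (edgeR adjusted p = 4.47e-16). LPS alone lowered it against control by a log2 fold change of -3.88 ± 0.09 (edgeR adjusted p = 1.56e-25; -4.65 with library size scaling), a 14.8-fold lower level, and dexamethasone alone by -1.49 ± 0.08 (edgeR adjusted p = 5.51e-16). Both agents together put the mean 108-fold under control at 4 h (log2 fold change -6.76 ± 0.12, edgeR adjusted p = 1.5e-28).

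The effect of dexamethasone under LPS differed between 24 h and 4 h by 4.07 ± 0.17 on the log2 scale (edgeR adjusted p = 1.55e-17), with 38.8% of all genes called in that test, 19% higher and 19.8% lower, and 3 of the 9 RGS genes called higher and 1 lower. Scaled by library size alone, that test called 3 higher and 2 lower. The effect of dexamethasone without LPS was -1.57 at 24 h and -1.49 at 4 h, and its difference of -0.08 did not pass (edgeR adjusted p = 0.626). The LPS effect on Rgs2 was -3.25 at 24 h (edgeR adjusted p = 1.5e-23) and -3.88 at 4 h, a difference of 0.62 ± 0.13 (edgeR adjusted p = 8.5e-05; 1.19 with library size scaling).

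Rgs16 was the gene with the widest span. RGS16 is an R4 member that acts on G alpha i and G alpha q and is known to limit chemokine-driven movement of lymphocytes. The gene (ENSMUSG00000026475.8) lies on the plus strand at chr1:153616095-153621214 (GRCm39 coordinates of the count table). At 24 h Rgs16 had 4.19, 2.59 and 3.01 CPM with dexamethasone plus LPS, against 1.24, 1.41 and 0.645 CPM with LPS, and the groups did not overlap (log2 fold change 1.57 ± 0.28, edgeR adjusted p = 3.15e-05). Controls at 24 h had 2.04, 1.29 and 2.55 CPM, and 1 LPS library lay above the lowest control library. LPS against control was called lower (log2 fold change -0.82 ± 0.30, edgeR adjusted p = 0.0212), but the call was lost without LPS replicate 3 (adjusted p = 0.139), control replicate 3 (adjusted p = 0.138) or control replicate 1 (adjusted p = 0.0541). Dexamethasone plus LPS against control at 24 h (log2 fold change 0.75 ± 0.25, edgeR adjusted p = 0.00956) was lost without replicate 1 of the combined treatment (adjusted p = 0.0941) or control replicate 2 (adjusted p = 0.0839).

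At 4 h Rgs16 had 81.7, 84.6 and 84.5 CPM with dexamethasone plus LPS and 35.6, 31.1 and 28.9 CPM with LPS. The 3 dexamethasone libraries held 0, 0.128 and 0.254 CPM, against 2.40, 1.71 and 1.93 CPM in controls. The 4 groups did not overlap, the libraries with both agents being the highest and those with dexamethasone alone the lowest. LPS raised Rgs16 15.8-fold over control (log2 fold change 3.95 ± 0.18, edgeR adjusted p = 1.78e-18; 3.19 with library size scaling). Dexamethasone plus LPS raised it a further 2.62-fold over LPS (log2 fold change 1.39 ± 0.13, edgeR adjusted p = 3.28e-10), to 41.5-fold over control. The LPS effect on Rgs16 differed between 24 h and 4 h by -4.77 ± 0.36 on the log2 scale (edgeR adjusted p = 6.55e-13), where 61.3% of all genes differed, 30.8% higher and 30.5% lower, and 3 of the 9 RGS genes were called higher and 4 lower. Scaled by library size alone this test called 4 higher and 2 lower. The effect of dexamethasone under LPS was 1.57 at 24 h and 1.39 at 4 h on the log2 scale, and the difference of 0.18 ± 0.32 did not pass (edgeR adjusted p = 0.706).

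Without LPS, dexamethasone moved Rgs16 the other way, on few reads. The dexamethasone libraries at 24 h held 4, 0 and 1 reads of Rgs16, against 45, 33 and 57 reads in controls. At 4 h they held 0, 3 and 6 reads, against 77, 37 and 42 reads in controls. No dexamethasone library reached a control library at either time. The fitted log2 fold change was -4.66 ± 0.53 at 24 h (edgeR adjusted p = 9.89e-09) and -3.91 ± 0.46 at 4 h (edgeR adjusted p = 2.52e-08). From the summed reads, 5 with dexamethasone against 135 in controls at 24 h and 9 with dexamethasone against 156 in controls at 4 h, the control level was 27.1 times (95% interval 11.3 to 84.9) at 24 h and 15.8 times (8.11 to 35.2) at 4 h the dexamethasone level, where the intervals cover counting error only. The 2 libraries with 0 reads allow levels of up to 0.134 CPM at 24 h and 0.139 CPM at 4 h, taking 3 reads as the limit that a count of 0 allows. With 1 library left out at a time, the fitted value ran from -6.14 (without dexamethasone replicate 1) to -4.14 at 24 h and from -4.83 (without dexamethasone replicate 3) to -3.39 at 4 h.

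Rgs1 fell under every treatment. RGS1 is an R4 member that restrains chemokine receptor signalling in B and T cells. The gene (ENSMUSG00000026358.14) lies on the minus strand at chr1:144118034-144124980 (GRCm39). At 24 h Rgs1 had 8.85, 9.68 and 11.01 CPM with dexamethasone plus LPS, 15.7, 16.5 and 12.4 CPM with LPS, 19.8, 23.6 and 16.6 CPM with dexamethasone, and 134, 88.2 and 119.5 CPM in controls. All treated libraries were far under the controls, and LPS overlapped neither of the other treated groups. LPS put Rgs1 7.67-fold under control (log2 fold change -2.94 ± 0.17, edgeR adjusted p = 8.84e-12), and dexamethasone 5.70-fold (log2 fold change -2.51 ± 0.16, edgeR adjusted p = 9.95e-11). Dexamethasone plus LPS was under LPS by a log2 fold change of -0.59 ± 0.20 (edgeR adjusted p = 0.0243). That call was lost in 4 of the fits that left out 1 library (largest adjusted p = 0.0948), with no filter on low counts (0.0574) and with the 24 h libraries fitted alone (0.0646).

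At 4 h Rgs1 had 39.7, 40.2 and 38.8 CPM with dexamethasone plus LPS, 39.8, 36.2 and 31.6 CPM with LPS, 42.1, 33.3 and 37.6 CPM with dexamethasone, and 149.8, 144 and 116 CPM in controls. The 3 treated groups overlapped one another and lay wholly under the controls. LPS gave a log2 fold change of -1.93 ± 0.15 (edgeR adjusted p = 9.64e-10; -2.70 with library size scaling) and dexamethasone one of -1.86 ± 0.15 (edgeR adjusted p = 4.75e-09), each against control. Adding dexamethasone to LPS gave 0.14 ± 0.16 (edgeR adjusted p = 0.513). The LPS effect differed between 24 h and 4 h by -1.01 ± 0.22 (edgeR adjusted p = 0.000695), but with library size scaling the difference was -0.44 (adjusted p = 0.0892). The sum of 7 dendritic cell markers moved with Rgs1 at 24 h. It was 14.7 to 17.9 CPM with LPS and 19 to 23.2 CPM with dexamethasone, against 121 to 172 CPM in controls. Most of the control sum was Itgax, also a macrophage gene, at a mean of 149 CPM, against 11.4 CPM with dexamethasone. Single markers went both ways: 3 fell and 2 rose with LPS, and 3 fell and 1 rose with dexamethasone. Flt3 averaged 9.07 CPM with dexamethasone and 0.129 CPM in controls. Of 10 lymphocyte markers 2 were tested and both fell with LPS and with dexamethasone at 24 h, their list summing to 7.24 to 8.88 CPM with LPS and 6.34 to 7.63 CPM with dexamethasone, against 27.8 to 30.2 CPM in controls, mostly Cd4, with Cd3e at a mean of 0.054 CPM. At 4 h the dendritic sums were 67.2 CPM with LPS and 34.3 CPM with dexamethasone, against 28.5 CPM in controls, while Rgs1 was lower with each agent. Mast cell and basophil markers, 3 of 6 tested, summed at 24 h to 0.229 to 1.39 CPM with LPS and 0.332 to 1.03 CPM with dexamethasone. Controls had 10.4 to 11.6 CPM, mostly Kit at a mean of 10.2 CPM. At 4 h the mean mast cell and basophil sums were 6.44 CPM with LPS and 0.807 CPM with dexamethasone, against 3.01 CPM in controls. The part of any of these lists in the Rgs1 results was not tested.

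Rgs18 fell with LPS and was higher where dexamethasone was added to it. RGS18 is an R4 member best known from platelets and megakaryocytes, where it restrains activation. The gene (ENSMUSG00000026357.4) lies on the minus strand at chr1:144628421-144651173 (GRCm39). At 24 h Rgs18 had 20.9, 24.4 and 24.3 CPM with dexamethasone plus LPS, 12.5, 14.9 and 14.6 CPM with LPS, 29.4, 30.9 and 26.6 CPM with dexamethasone, and 58.8, 57.3 and 54.5 CPM in controls. No 2 of these groups overlapped. LPS gave a log2 fold change of -2.02 ± 0.08 (edgeR adjusted p = 5.85e-22), dexamethasone one of -0.98 ± 0.08 (edgeR adjusted p = 1.88e-13), and dexamethasone plus LPS over LPS one of 0.73 ± 0.09 (edgeR adjusted p = 7.95e-09).

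At 4 h Rgs18 had 10.1, 11.9 and 10.6 CPM with dexamethasone plus LPS, 6.59, 6.96 and 6.44 CPM with LPS, 41.2, 40.4 and 43.99 CPM with dexamethasone, and 40.5, 40.3 and 37.9 CPM in controls. LPS libraries were lowest, those with both agents stood above them, and dexamethasone libraries overlapped the controls. LPS lowered Rgs18 5.94-fold (log2 fold change -2.57 ± 0.09, edgeR adjusted p = 7.78e-24; -3.34 with library size scaling), and dexamethasone plus LPS was above LPS by 0.70 ± 0.11 (edgeR adjusted p = 1.26e-06). The effect of dexamethasone without LPS differed between 24 h and 4 h by -1.06 ± 0.11 (edgeR adjusted p = 5.74e-10), where 30.7% of all genes differed, 13.8% higher and 16.8% lower, and 0 of the 9 RGS genes were called higher and 4 lower (1 to 4 with a library left out). The LPS effect differed by 0.54 ± 0.13 (edgeR adjusted p = 0.000397; 1.11 with library size scaling). Megakaryocyte and platelet markers, 6 of 9 tested, summed at 24 h to 7.23 to 9.78 CPM with both agents and 51.9 to 72.3 CPM with LPS. Their sum was 16.7 to 19.4 CPM with dexamethasone and 30.2 to 35.2 CPM in controls. Pf4 was most of the sum in controls and with LPS. The marker sum was thus lower at 24 h with dexamethasone and with both agents than in controls, as Rgs18 was. It moved the other way from Rgs18 with LPS against control and with both agents against LPS. The fall with dexamethasone was that of Pf4, at a mean of 5.23 CPM against 25.4 CPM in controls. The other listed markers with reads had higher means, among them Treml1 (5.76 against 4.56 CPM), Gp1ba (2.93 against 1.53 CPM) and Itga2b (2.76 against 0.623 CPM). At 4 h the marker sum was 56.6 to 74.9 CPM with both agents, 86.3 to 130 CPM with LPS, 50.8 to 56.6 CPM with dexamethasone and 55.3 to 72.8 CPM in controls. Gp1bb was at 0 in every group, and the part of these markers in the Rgs18 results was not tested.

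Rgs3 was called higher with both agents, against LPS and against control, and with neither agent alone. RGS3 is an R4 member that acts on G alpha i and G alpha q. The gene (ENSMUSG00000059810.19) lies on the plus strand at chr4:62478084-62622238 (GRCm39). At 24 h Rgs3 had 13.1, 12.7 and 13.2 CPM with dexamethasone plus LPS, 6.93, 6.98 and 8.74 CPM with LPS, 5.39, 4.02 and 3.53 CPM with dexamethasone, and 7.47, 6.81 and 6.63 CPM in controls. The libraries with both agents were the highest, those with dexamethasone alone the lowest, and LPS overlapped the controls. Dexamethasone plus LPS was over LPS by a log2 fold change of 0.79 ± 0.15 (edgeR adjusted p = 2.59e-05) and over control by 0.90 ± 0.14 (edgeR adjusted p = 1.39e-06), while dexamethasone alone was under control (log2 fold change -0.69 ± 0.16, edgeR adjusted p = 0.000456).

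At 4 h Rgs3 had 19.95, 19.1 and 13.9 CPM with dexamethasone plus LPS, 11.2, 10.1 and 10.8 CPM with LPS, 7.96, 9.10 and 10.96 CPM with dexamethasone, and 9.18, 8.90 and 10.6 CPM in controls. Only the libraries with both agents stood apart from the other 3 groups. Dexamethasone plus LPS was over LPS by 0.72 ± 0.14 (edgeR adjusted p = 4.45e-05), and neither LPS alone (log2 fold change 0.17 ± 0.14, edgeR adjusted p = 0.299) nor dexamethasone alone (-0.03 ± 0.14, edgeR adjusted p = 0.905) passed against control. The LPS value at 4 h is not stable to the scaling: with library size alone it was -0.60 (adjusted p = 0.000317). Dexamethasone plus LPS against control at 4 h was 0.89 ± 0.14 (edgeR adjusted p = 5e-07) and 0.34 with library size alone (adjusted p = 0.0267).

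Rgs14 was the R12 member that LPS raised, at 4 h. RGS14 carries a Ras-binding domain and a GoLoco motif that holds inactive G alpha i, and is known for limiting plasticity in the CA2 region of the hippocampus. The gene (ENSMUSG00000052087.15) lies on the plus strand at chr13:55517545-55532500 (GRCm39). At 24 h Rgs14 had 35.8, 32.6 and 32.0 CPM with dexamethasone plus LPS and 31.5, 34.2 and 33.2 CPM with LPS. Dexamethasone alone gave 46.5, 38.95 and 48.3 CPM, against 31.5, 31.9 and 32.1 CPM in controls. Only dexamethasone alone stood apart from control, by 0.49 ± 0.08 (edgeR adjusted p = 3.77e-06). The combined treatment against LPS gave 0.02 ± 0.08 (edgeR adjusted p = 0.864), and LPS against control 0.05 ± 0.08 (edgeR adjusted p = 0.632).

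At 4 h Rgs14 had 20.8, 20.9 and 26.4 CPM with dexamethasone plus LPS, 76.9, 85.6 and 81.8 CPM with LPS, 57.8, 55.0 and 53.1 CPM with dexamethasone, and 36.7, 42.4 and 37.3 CPM in controls. The 4 groups did not overlap, and each agent alone gave levels above control while both together gave levels under it. LPS raised Rgs14 by a log2 fold change of 1.07 ± 0.08 (edgeR adjusted p = 7.4e-15; 0.30 with library size scaling) and dexamethasone by 0.51 ± 0.08 (edgeR adjusted p = 1.22e-06). Dexamethasone plus LPS was 3.59-fold under LPS (log2 fold change -1.84 ± 0.08, edgeR adjusted p = 7.5e-20) and under control as well (-0.77 ± 0.09, edgeR adjusted p = 4.51e-10; -1.32 with library size scaling). The differences between 24 h and 4 h were -1.02 ± 0.11 for the LPS effect (edgeR adjusted p = 7.55e-10; -0.45 with library size scaling) and 1.86 ± 0.12 for the effect of dexamethasone under LPS (edgeR adjusted p = 2.57e-15).

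Rgs10 fell with either agent. In controls it had the highest per-length level at 24 h, while at 4 h its libraries, at 83.2, 77.6 and 81.4 CPM per kb, overlapped those of Rgs2, at 84.3, 77.3 and 73.7 CPM per kb. RGS10 is a small R12 member that acts on G alpha i and is known to restrain inflammatory output of microglia and macrophages. The gene (ENSMUSG00000030844.12) lies on the minus strand at chr7:127975345-128020482 (GRCm39). At 24 h Rgs10 had 61.6, 60.1 and 60.7 CPM with dexamethasone plus LPS, 51.5, 57.7 and 55.5 CPM with LPS, 144, 126 and 125.5 CPM with dexamethasone, and 172.5, 173 and 164 CPM in controls. The groups did not overlap, and the 2 LPS groups were well under the other 2. LPS gave a log2 fold change of -1.63 ± 0.06 (edgeR adjusted p = 1.02e-22) and dexamethasone one of -0.37 ± 0.06 (edgeR adjusted p = 2.6e-06). Dexamethasone plus LPS against LPS gave 0.15 ± 0.06 and did not pass (edgeR adjusted p = 0.0634). This depends on the processing. The comparison passed with DESeq2 (adjusted p = 0.0272) and with every other scaling run (edgeR adjusted p from 0.01728 to 0.02515). It also passed with a filter of 5 CPM (0.0335), with the compared groups fitted alone (0.0302) and in 2 of the fits that left out a single library. It stayed uncalled with no filter on low counts, with a replicate block, with a non-robust fit and with the 24 h libraries fitted alone. The other fits that left out a single library did not call it either, with edgeR adjusted p up to 0.279.

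At 4 h Rgs10 had 56.4, 50.85 and 48.8 CPM with dexamethasone plus LPS, 77.1, 73.7 and 68.1 CPM with LPS, 110.2, 104 and 117 CPM with dexamethasone, and 142, 133 and 139 CPM in controls. The groups stood in this order with no overlap. LPS gave -0.92 ± 0.06 (edgeR adjusted p = 7.08e-16), dexamethasone -0.33 ± 0.06 (edgeR adjusted p = 2.42e-05), and dexamethasone plus LPS against LPS -0.49 ± 0.07 (edgeR adjusted p = 7.38e-08). With library size scaling the value for LPS was -1.69 and that for dexamethasone plus LPS against LPS -0.26. The effect of dexamethasone under LPS differed between 24 h and 4 h by 0.64 ± 0.09 (edgeR adjusted p = 6.01e-07). The LPS effect differed by -0.71 ± 0.09 (edgeR adjusted p = 7.9e-09), and by -0.14 (adjusted p = 0.147) when scaled by library size alone.

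Rgs12 was the lowest of the 9 genes in CPM in controls apart from Rgs16. RGS12 carries PDZ, Ras-binding and GoLoco domains beside its RGS domain. The gene (ENSMUSG00000029101.17) lies on the plus strand at chr5:35106789-35196988 (GRCm39). At 24 h Rgs12 had 1.78, 1.81 and 2.13 CPM with dexamethasone plus LPS, 2.66, 1.93 and 2.23 CPM with LPS, 1.62, 2.72 and 1.76 CPM with dexamethasone, and 6.84, 4.62 and 4.79 CPM in controls. The 3 treated groups overlapped and lay under the controls, with log2 fold changes of -1.24 ± 0.22 for LPS (edgeR adjusted p = 5.7e-06) and -1.41 ± 0.22 for dexamethasone (edgeR adjusted p = 9.39e-07). At 4 h it had 3.12, 2.12 and 2.77 CPM with dexamethasone plus LPS, 3.29, 4.05 and 5.25 CPM with LPS, 5.04, 5.53 and 4.48 CPM with dexamethasone, and 6.68, 8.95 and 7.14 CPM in controls. Each treated group was under the controls, by -0.86 ± 0.20 for LPS (edgeR adjusted p = 0.000223; -1.62 with library size scaling) and -0.59 ± 0.19 for dexamethasone (edgeR adjusted p = 0.0105). The dexamethasone call at 4 h was lost without control replicate 2 (adjusted p = 0.0772) or dexamethasone replicate 3 (0.0557). Dexamethasone plus LPS was under LPS at 4 h by -0.63 ± 0.23 (edgeR adjusted p = 0.0198), a call lost without replicate 2 of the combined treatment (0.101), without LPS replicate 3 (0.143) and with library size scaling (log2 fold change -0.41, adjusted p = 0.132).

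Rgs19 was the steadiest of the 9. RGS19, also called GAIP, is the RZ member, acts on G alpha i and G alpha z and binds the adaptor GIPC. The gene (ENSMUSG00000002458.14) lies on the minus strand at chr2:181330212-181335770 (GRCm39). At 24 h Rgs19 had 72.6, 76.1 and 76.8 CPM with dexamethasone plus LPS, 74.2, 74.1 and 79.1 CPM with LPS, 82.3, 77.0 and 83.99 CPM with dexamethasone, and 75.3, 77.0 and 74.2 CPM in controls. All 4 groups lay between 72.6 and 83.99 CPM, and LPS against control gave a log2 fold change of 0.01 ± 0.05 (edgeR adjusted p = 0.935). At 4 h Rgs19 had 57.9, 54.3 and 59.1 CPM with dexamethasone plus LPS, 53.3, 57.3 and 60.8 CPM with LPS, 95.8, 92.9 and 90.0 CPM with dexamethasone, and 91.2, 87.7 and 88.2 CPM in controls. The 2 LPS groups overlapped each other and lay under the other 2, with a log2 fold change of -0.64 ± 0.06 for LPS (edgeR adjusted p = 8.22e-13; -1.41 with library size scaling). The LPS effect differed between 24 h and 4 h by 0.65 ± 0.08 (edgeR adjusted p = 4.46e-09). Scaled by library size alone that difference was 1.22, and the LPS value at 24 h was -0.19 (adjusted p = 0.00308). No comparison of dexamethasone passed for Rgs19 with or without LPS, the adjusted p-values of edgeR running from 0.117 to 0.993. With library size scaling, dexamethasone plus LPS against LPS at 4 h (0.22, edgeR adjusted p = 0.00165) and dexamethasone against control at 24 h (0.14, edgeR adjusted p = 0.0303) did pass. So did the difference of the dexamethasone effect under LPS between 24 h and 4 h (-0.20, edgeR adjusted p = 0.0441). Dexamethasone plus LPS against control, where LPS differs too, was -0.64 at 4 h (edgeR adjusted p = 9.41e-13). At 24 h that comparison was -0.01 (edgeR adjusted p = 0.941), and -0.17 with library size scaling (edgeR adjusted p = 0.00843). Dexamethasone against control at 24 h also passed with upper-quartile scaling (edgeR adjusted p = 0.0303), a filter of 5 CPM (0.0494) and the compared groups fitted alone (0.0427).

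**Figure D3:**
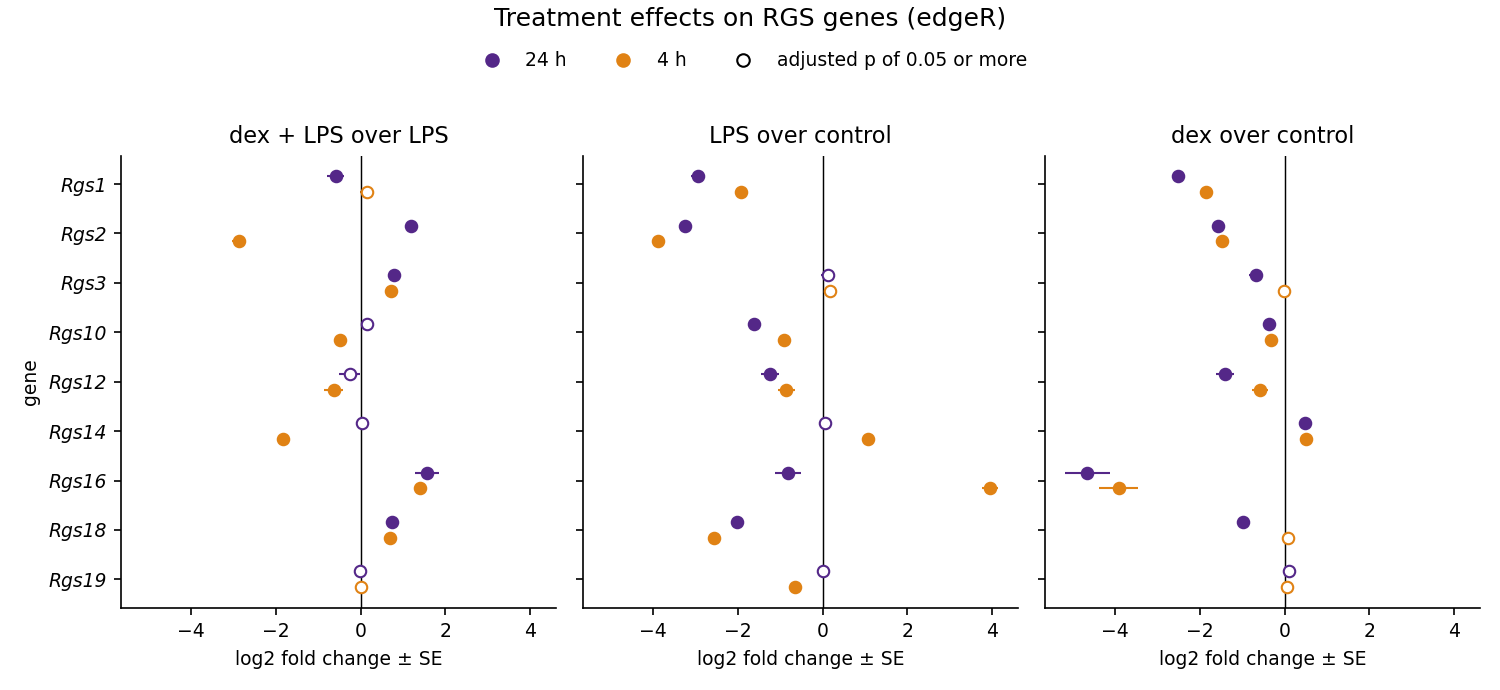
Log2 fold changes from edgeR (x axis, with SE) of the 9 RGS genes (y axis) for dexamethasone plus LPS over LPS, LPS over control and dexamethasone (dex) over control, at 24 h (purple) and 4 h (orange). Open circles have an adjusted p of 0.05 or more. Rgs2 stands at 1.19 at 24 h and -2.88 at 4 h in the left panel, and Rgs16 at -0.82 at 24 h and 3.95 at 4 h in the middle panel.

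Whether LPS altered the response to dexamethasone was tested directly, as the difference between the effect under LPS and the effect without it. Higher and lower refer here to the signed log2 value, so that a weaker fall under LPS counts as higher. At 24 h 7 of the 9 genes had a higher and 1 a lower dexamethasone effect under LPS, where 38.2% of all genes differed, 20.5% higher and 17.7% lower. At 4 h 4 were higher and 2 lower, where 38.7% of all genes differed, 20.8% higher and 17.9% lower. These differences share their libraries with the comparisons above and are not a second line of evidence. Rgs16 had the largest difference among the 9 genes: its dexamethasone effect was 1.57 under LPS against -4.66 without LPS at 24 h (difference 6.22 ± 0.60, edgeR adjusted p = 5.46e-10), and 1.39 under LPS against -3.91 without LPS at 4 h (difference 5.30 ± 0.46, edgeR adjusted p = 6.31e-11). These rest on 5 reads with dexamethasone alone at 24 h and 9 at 4 h, and with 1 library left out the differences ran from 5.71 to 7.71 at 24 h (highest without dexamethasone replicate 1) and from 4.78 to 6.22 at 4 h (highest without dexamethasone replicate 3). For Rgs1 the effect was -0.59 under LPS against -2.51 without at 24 h, a difference of 1.92 ± 0.26 (edgeR adjusted p = 7.1e-06), and at 4 h the difference was 2.00 ± 0.22 (edgeR adjusted p = 5.21e-07).

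The 2 genes with a lower signed dexamethasone effect under LPS at 4 h were Rgs2 (-2.88 under LPS against -1.49 without LPS, a larger fall) and Rgs14. For Rgs2 the difference was 2.76 ± 0.12 at 24 h (edgeR adjusted p = 1.35e-17) and -1.39 ± 0.18 at 4 h (edgeR adjusted p = 2.11e-07). For Rgs14 it was -0.46 ± 0.12 at 24 h (edgeR adjusted p = 0.00136) and -2.35 ± 0.12 at 4 h (edgeR adjusted p = 1.6e-18), the effect at 4 h being -1.84 under LPS against 0.51 without LPS. Rgs18 differed by 1.71 ± 0.12 at 24 h (edgeR adjusted p = 8.97e-15) and 0.62 ± 0.13 at 4 h (edgeR adjusted p = 0.000248), and Rgs3 by 1.47 ± 0.22 (edgeR adjusted p = 6.57e-07) and 0.75 ± 0.20 (edgeR adjusted p = 0.00262). Rgs10 at 0.52 ± 0.09 (edgeR adjusted p = 9.29e-06) and Rgs12 at 1.15 ± 0.33 (edgeR adjusted p = 0.00558) passed at 24 h and missed the threshold at 4 h. At 24 h the effect under LPS, not called for either gene, was 0.15 for Rgs10 and -0.26 for Rgs12. Without LPS it was -0.37 for Rgs10 and -1.41 for Rgs12. Rgs19 passed at neither time (edgeR adjusted p = 0.259 at 24 h and 0.603 at 4 h).

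**Figure D4:**
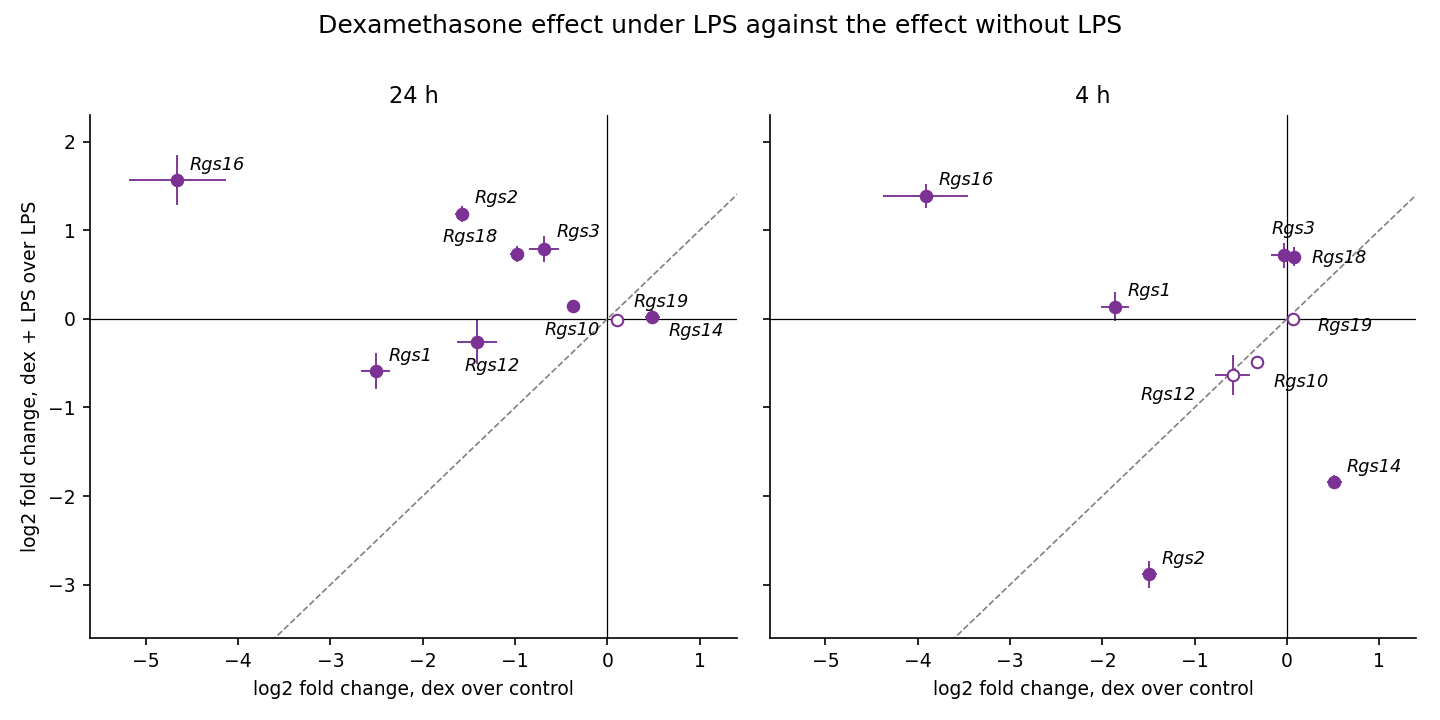
For each RGS gene the log2 fold change of dexamethasone (dex) plus LPS over LPS (y axis) is set against that of dexamethasone over control (x axis), at 24 h (left) and 4 h (right), with SE bars; on the dashed line both would be equal. Filled points differ between the 2 conditions at an adjusted p under 0.05. At 24 h 7 filled points lie above the line and Rgs14 lies under it, and at 4 h Rgs2 and Rgs14 lie under it.

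Among the 9 genes, 4 share a chromosome, and their responses were not alike. On chromosome 1 Rgs2, Rgs1 and Rgs18 lie in a block of 776 kb that also holds Rgs13 and Rgs21, all on the minus strand, and neither Rgs13 nor Rgs21 had a read in any library. Within that block, dexamethasone plus LPS against LPS at 4 h gave -2.88 for Rgs2, 0.14 for Rgs1 and 0.70 for Rgs18 on the log2 scale. Rgs16 lies apart on the same chromosome. Of 21 numbered Rgs genes listed, 11 were tested, and among 15 other genes of the RGS family 6 had no read in any library and 4 were tested. None of these other genes exceeded a group mean of 8.05 CPM, which Rgs11, an R7 member known from retinal bipolar cells, had in controls at 4 h, against 1.45 CPM with LPS (log2 fold change -2.47 ± 0.24, edgeR adjusted p = 9.91e-12).

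Genes of G protein subunits, among them those that RGS members act on, and of the receptors above them moved in several directions. Of the 2 tested genes of the G alpha i, o and z class, Gnai2 averaged 862 ± 28.6 CPM with LPS and 1000 ± 23.2 CPM in controls at 4 h (SD, n = 3 each; log2 fold change -0.22), and Gnai3 averaged 326 ± 5.87 CPM with LPS and 166 ± 9.83 CPM in controls (log2 fold change 0.97). Both were lower with dexamethasone plus LPS than with LPS at 4 h, at -0.26 for Gnai2 and -0.34 for Gnai3, of which 1 passed with library size scaling. Among 7 tested genes of the G alpha q, 12/13 and s classes, 3 rose and 3 fell with LPS at 4 h, where 34.2% of all genes rose and 38.8% fell, and 2 rose and 5 fell with library size scaling. Gna15, a G alpha q class subunit of blood cells, averaged 13.8 ± 0.652 CPM with dexamethasone plus LPS, 46.8 ± 0.642 CPM with LPS and 21.7 ± 0.605 CPM in controls at 4 h, with log2 fold changes of -1.76 for both agents against LPS and 1.11 for LPS against control. Gna12, of the G alpha 12/13 class, averaged 62.6 CPM with LPS, against 251 CPM in controls. Against the same shares, of 12 tested G beta and gamma genes 6 rose and 4 fell with LPS at 4 h, and 4 rose and 7 fell with library size scaling. All changes named in this paragraph and the next passed edgeR's test at an adjusted p under 0.05.

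Receptor kinases and arrestins also turn receptors off, by phosphorylating them and by capping the phosphorylated receptor. Of 7 tested, 1 rose and 4 fell with LPS at 4 h, where 34.2% of all genes rose and 38.8% fell (1 rose and 6 fell with library size scaling), with a median log2 fold change of -1.39 against -0.07 over all genes. Arrb1 averaged 24.6 ± 1.94 CPM with LPS and 238 ± 12.5 CPM in controls, and Arrb2 71.6 ± 5.04 CPM with LPS and 266 ± 8.49 CPM in controls (SD, n = 3 each). The kinase gene Grk3 averaged 87.6 ± 2.22 CPM with LPS and 14.5 ± 3.94 CPM in controls. Dexamethasone plus LPS against LPS at 4 h raised all 7, where 23.9% of all genes rose and 25.4% fell, with a median of 0.58 against 0 over all genes, and library size scaling gave the same count of 7. Grk5 averaged 27.9 ± 2.77 CPM with both agents and 13.2 ± 1.20 CPM with LPS, and Grk6 46.0 ± 4.13 CPM with both agents and 24.7 ± 0.631 CPM with LPS. Among 6 tested receptors coupled to Gs, 5 rose and 1 fell with LPS at 4 h, against the shares of 34.2% and 38.8% over all genes (4 rose and 1 fell with library size scaling). The adenosine receptor gene Adora2a averaged 173 CPM with LPS against 1.07 CPM in controls at 4 h. Of 20 tested attractant and lipid receptors 9 rose and 9 fell with LPS at 4 h, against the same shares (7 rose and 10 fell with library size scaling), and 6 rose and 11 fell with dexamethasone plus LPS against LPS, where 23.9% of all genes rose and 25.4% fell. Cxcr4, the CXCL12 receptor, averaged 3.56 CPM with LPS against 164 CPM in controls, and Fpr2, a formyl peptide receptor, 257 CPM with LPS against 1.24 CPM in controls.

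Likeness to other genes was measured as Pearson's r of mean log2 CPM over the 8 groups, among 10307 tested genes with at least 5 CPM in a group, as a description in which all genes share the same libraries. Rgs2 was closest to Strada (r = 0.985), Celf2 (0.982) and Wipf1 (0.976). Rgs16 was closest to Ccdc122 (0.978), Dcbld2 (0.973) and Eif2s3x (0.972). Rgs14 had the least close neighbours after its first, Vps37b at 0.972 and then Fbxo4 at 0.882. Rgs1 was closest to Cchcr1 (0.971), Rgs3 to Hdac9 (0.964), Rgs10 to Dppa3 (0.988), Rgs12 to Sncaip (0.994), Rgs18 to Tspyl4 (0.975) and Rgs19 to Entpd5 (0.997).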

How the data were processed

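Total RNA of 24 macrophage libraries had been sequenced, and the authors deposited raw read counts per gene. The counts were made with featureCounts 2.0.0 against the GENCODE M29 annotation, without strand, per the file headers. The submitters' processing notes list STAR and featureCounts and the builds GRCm38 and mm10, whereas M29 is a GRCm39 annotation, and the printed gene positions are those of the count table. Symbols came from a GENCODE M21 table by Ensembl identifier, and promoter windows from RefSeq GRCm38.p6. The count table was fitted with edgeR 4.0.16 in R 4.3.3 (filterByExpr, TMM scaling, robust quasi-likelihood test, 8 group means, 16 residual degrees of freedom), with 14 contrasts and Benjamini-Hochberg adjustment over 14985 genes each. Printed levels are CPM from these counts, computed on TMM-scaled library sizes. Each SE is the absolute log2 fold change divided by the root of its F value. Alternatives were DESeq2 1.42.0, other scalings and filters, subsets of the libraries, a replicate block and leaving out each library. Pathway genes were named by a rule: up to 2 rises and 2 falls of largest log2 fold change per list and comparison, with a mean of at least 5 CPM in a group; some of these are not reported here. The members, lists and tests were chosen with earlier results of these data known. The script was tested on simulated data. Nothing in the labels ties replicates to separate mice, so the p-values reflect the scatter of these 24 libraries alone, which may be technical.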

Additional observations from a re-analysis of the deposited data

Results flagged for a closer look

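The effect of an agent on 15 gene and agent pairs differed between 24 h and 4 h by edgeR's test of the difference itself (adjusted p under 0.05), which is what brought them here. For LPS against control, the 24 h log2 effect minus the 4 h effect was -4.77 for Rgs16, -1.02 for Rgs14, -1.01 for Rgs1 and -0.71 for Rgs10. It was 0.62 for Rgs2, 0.54 for Rgs18 and 0.65 for Rgs19. With library size scaling the differences of Rgs1 and Rgs10 no longer passed (-0.44 and -0.14).

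For dexamethasone under LPS the difference was 4.07 for Rgs2, 1.86 for Rgs14 and 0.64 for Rgs10, and -0.73 for Rgs1. The value of Rgs1 (edgeR adjusted p = 0.0329) missed the threshold in 8 of the fits that left out 1 library, with adjusted p-values up to 0.0857.

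For dexamethasone without LPS the difference was -1.06 for Rgs18, -0.82 for Rgs12, -0.66 for Rgs3 and -0.65 for Rgs1. Of these the value of Rgs18 (edgeR adjusted p = 5.74e-10) passed in every fit that left out 1 library. That of Rgs12 (edgeR adjusted p = 0.0266) was lost in 6 of them, with adjusted p-values up to 0.125, and that of Rgs1 (edgeR adjusted p = 0.0279) in 7, up to 0.0873. That of Rgs3 (edgeR adjusted p = 0.0161) was lost without dexamethasone replicate 3 at 24 h (0.0744) or at 4 h (0.0701).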

How the results depend on the processing

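Over the 9 genes and 14 comparisons, 4248 values were recomputed under the alternatives. The side of the threshold held in 4177 of them, as did the direction of values that were called. A value called in neither the main nor the alternative fit counted as held whatever its sign. Of the rest, 50 lost the call, 18 gained it, and 3 that were called in the main or the alternative fit changed sign. These 3 came with scaling by library size alone. They were Rgs3 for LPS at 4 h (-0.603, edgeR adjusted p = 0.000317), Rgs3 for the LPS effect at 24 h against 4 h (0.519, edgeR adjusted p = 0.0299) and Rgs19 for LPS at 24 h (-0.194, edgeR adjusted p = 0.00308). The median over all genes for LPS at 4 h was -0.84 with that scaling, against -0.07 with TMM. Leaving out 1 library at a time kept 2981 of 3024 values, lost 39 calls and gained 4. The count of RGS genes whose dexamethasone effect without LPS differed between the times ran from 1 to 4 in these fits: it was 1 without dexamethasone 24 h replicate 3, and 2 without dexamethasone 24 h replicate 1, dexamethasone 4 h replicate 3, control 24 h replicate 1 or control 4 h replicate 3. The other counts of calls in either direction, over the 9 genes and over all genes, stayed within 1.5 times their value under every alternative run. Small counts in 1 direction moved more: over all alternatives, those lower ran from 2 to 4 for the LPS effect at 24 h against 4 h, from 0 to 2 for the dexamethasone effect under LPS at 24 h against 4 h, and from 0 to 1 for dexamethasone plus LPS against LPS at 24 h. Those higher ran from 1 to 2 for dexamethasone plus LPS against control and for dexamethasone against control, both at 24 h. DESeq2 kept 125 of 126 values and gained 1 call. Same-numbered libraries did not deviate together (correlations from -0.0533 to 0.0509 over 84 pairs). Such values cannot tell if these libraries share a mouse or a day, since a small shared effect could give them too. A replicate block kept 126 of 126 values, and with it the dexamethasone effect under LPS on Rgs2 differed by 4.07 between the times. Depth limits Rgs16 in dexamethasone-treated cells, where 0 to 6 reads stood behind a library's value.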

Other observations

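The effector enzymes below the G proteins and the Gs-coupled receptors moved at 24 h as well; all changes named here passed edgeR's test at an adjusted p under 0.05. Of 10 tested phospholipase C beta and adenylyl cyclase genes 3 rose and 4 fell with LPS at 24 h, where 60.4% of all genes were called. Plcb2, a phospholipase C beta of blood cells, averaged 34.3 ± 0.549 CPM with dexamethasone plus LPS and 21.5 ± 0.952 CPM with LPS at 24 h (SD, n = 3 each; log2 fold change 0.67). It averaged 26.7 ± 2.12 CPM with dexamethasone and 58.99 ± 1.5 CPM in controls (log2 fold change -1.15). Its dexamethasone effect was thus higher under LPS than without LPS, by 1.82 ± 0.12 (SE; edgeR adjusted p = 7.64e-15).

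All 6 tested Gs-coupled receptor genes rose with dexamethasone plus LPS against control at 24 h (5 with library size scaling), where 28.8% of all genes rose. Ptger2, a prostaglandin E2 receptor, averaged 31.9 ± 0.128 CPM with dexamethasone and 4.64 ± 0.356 CPM in controls at 24 h (log2 fold change 2.78). Rgsl1, an RGS-like gene, averaged 0.484 ± 0.284 CPM with dexamethasone plus LPS and 5.51 ± 0.582 CPM with LPS at 24 h, against 0.981 ± 0.191 CPM in controls. For Rgsl1 both agents against LPS and LPS against control passed. Both agents against control did not (log2 fold change -1.0, edgeR adjusted p = 0.084).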
